A study of Mus musculus with 4 samples.

Results

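The cells described here are the dividing and non-dividing mesenchymal cells of the mouse lung at E17.5 (E for embryonic day), 129 cycling and 1358 non-cycling cells of 1632 mesenchymal cells, among 7479 cells from 3 lungs. Single-cell RNA sequencing was done on live cells of digested, red-cell-lysed lungs of wild-type (WT) C57BL/6 embryos, 1 library a lung. The series holds 10564 cells in 4 samples, the fourth being a sort of Tbx4-lineage+, αSMA+ (alpha smooth muscle actin) fibroblasts at E16.5, used below for 1 value only. A cell was taken as mesenchymal where at least 3 of the 6 genes Col1a1, Col1a2, Col3a1, Col6a2, Cdh11 and Olfml3 had a unique molecular identifier (UMI, a tag that marks 1 captured RNA molecule) and Ptprc, Pecam1 and Epcam, markers of blood, endothelial and epithelial cells, had none. It was called cycling with 2 or more UMIs of Mki67 plus Top2a and non-cycling with 0. The 145 cells with 1 UMI were set apart. Lungs 1, 2 and 3 gave 51, 32 and 46 cycling cells and 534, 385 and 439 non-cycling cells. The labels name 3 WT samples and do not say how the embryos were related, so the spread between lungs may be partly technical.

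Mesenchymal cells of the late fetal lung comprise matrix fibroblasts, myofibroblasts and smooth muscle, pericytes and adventitial fibroblasts, which lay down collagen and elastic fibres around the forming airspaces. A dividing cell passes through replication (S phase), in which it copies its DNA and makes histones, and then mitosis, in which kinetochores, the spindle and the anaphase-promoting complex (APC/C) part the chromosomes. E2F factors are known to switch on replication genes, and the MuvB complex with B-Myb and FoxM1 the mitotic genes. Known elements of mitotic promoters are CCAAT boxes and the cell cycle genes homology region (CHR).

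The genes that separated the states most were mitotic and replicative. Some large rises, such as Nusap1, Birc5 and Tk1, had no CHR, CCAAT box or E2F site in the 200 bases before the annotated start used. Mcm5 and Mcm6 rose by less, with log2 differences of 1.92 and 1.27. The promoters below are shown because they carry such elements in those bases, so they do not represent all genes that rose. They are the 200 bases upstream of the annotated start in RefSeq on GRCm38.p6, read 5′ to 3′ on the gene's strand, with capitals marking a CHR, a CCAAT box or an E2F site on either strand. The letters searched for the E2F site were TTTCGCGC, TTTGGCGC, TTCCCGCC and TTTCCCGC. Those for the CHR were TTTGAA in its common form. A rarer form of the same element that was also searched for is TTCGAA. Ube2c (chr2:164769729-164769928, plus strand) and Cdc20 (chr4:118437344-118437543, minus strand) act with the APC/C, Cdk1 (chr10:69352913-69353112, minus strand) and Ccnb2 (chr9:70421555-70421754, minus strand) are the kinase and a cyclin of mitotic entry, and Mcm5 (chr8:75109309-75109508, plus strand) and Mcm6 (chr1:128359706-128359905, minus strand) are subunits of the replicative helicase.
Ube2c: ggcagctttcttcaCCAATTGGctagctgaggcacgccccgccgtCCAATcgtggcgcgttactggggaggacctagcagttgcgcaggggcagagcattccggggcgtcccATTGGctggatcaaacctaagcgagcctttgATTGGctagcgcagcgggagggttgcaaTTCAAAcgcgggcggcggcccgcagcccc
Cdc20: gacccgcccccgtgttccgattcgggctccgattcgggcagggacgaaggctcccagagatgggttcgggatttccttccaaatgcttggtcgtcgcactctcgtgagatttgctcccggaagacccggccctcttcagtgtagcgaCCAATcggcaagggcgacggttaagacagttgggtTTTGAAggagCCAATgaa
Cdk1: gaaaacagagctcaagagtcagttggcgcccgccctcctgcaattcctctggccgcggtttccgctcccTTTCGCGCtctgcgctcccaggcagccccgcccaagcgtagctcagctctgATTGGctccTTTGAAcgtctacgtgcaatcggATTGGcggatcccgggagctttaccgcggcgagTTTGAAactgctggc
Ccnb2: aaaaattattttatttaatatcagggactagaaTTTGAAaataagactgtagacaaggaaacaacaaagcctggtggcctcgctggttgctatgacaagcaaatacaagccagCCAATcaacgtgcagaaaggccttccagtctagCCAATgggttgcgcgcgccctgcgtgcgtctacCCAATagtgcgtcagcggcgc
Mcm5: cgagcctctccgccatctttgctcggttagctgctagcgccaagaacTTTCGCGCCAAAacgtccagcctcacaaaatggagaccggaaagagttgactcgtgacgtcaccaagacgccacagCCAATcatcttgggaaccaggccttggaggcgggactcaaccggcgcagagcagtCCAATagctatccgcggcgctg
Mcm6: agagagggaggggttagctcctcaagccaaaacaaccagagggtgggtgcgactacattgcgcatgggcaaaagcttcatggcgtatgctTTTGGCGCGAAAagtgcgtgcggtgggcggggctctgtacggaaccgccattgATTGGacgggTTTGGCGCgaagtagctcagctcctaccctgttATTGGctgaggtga
Genes were then counted by the 250 bases upstream of their starts. A CHR was found in 22 of 65 mitotic genes that rose in cycling cells and had a promoter in the table (33.8%). Of all tested genes with a promoter there, 14.1% had one. A CCAAT box was found in 45 of the 65 (69.2%) against 40.7%. An E2F site was found in 5 of the 65 (7.69%). Of 39 replication and nucleotide genes that rose and had a promoter, 9 held an E2F site (23.1%), against 6.97% of tested genes. A CCAAT box was held by 24 (61.5%) and a CHR by 8 (20.5%). The 384 genes that fell and had a promoter held a CHR, a CCAAT box and an E2F site in 15.4%, 39.8% and 3.12%. Over all 27025 genes in the table these 3 shares were 19.6%, 37.5% and 3.36%. A gene was counted once if any of its annotated promoters held a match, so a gene with several start sites had more chances. In Mcm5 and Mcm6 matches on the opposite strands overlap. A match of letters is a description of the sequence, not a bound site.

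Mki67 and Top2a, on which the cells were selected, are described without a test. Mki67, a coat protein of mitotic chromosomes, had 118, 132 and 124 CPM (counts of UMIs scaled to the same total in every cell, then averaged over the cells of a lung) in the cycling cells of lungs 1, 2 and 3. Top2a, the topoisomerase that untangles sister DNA, had 334, 433 and 502 CPM. Both were at 0 in non-cycling cells by construction. The state was visible in genes the selection did not use: 100 of the 129 cycling cells (77.5%) also had 2 or more UMIs of Cdk1 plus Cenpf, against 32 of 1358 non-cycling cells (2.36%).

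Just outside the threshold, the 145 cells with 1 UMI of Mki67 plus Top2a had a summed level of 93 mitotic genes of 2352 ± 414 CPM (SD, n = 3 lungs). Cells with none had 1909 ± 52.8 CPM. Just inside it, the 26 cells with 2 UMIs had 6055 ± 2092 CPM, and the 85 cells with 4 or more had 11910 ± 526 CPM. The cells with 1 UMI thus lay nearer to the non-cycling cells, in each lung, than to those with 2. The 47 replication genes went from 965 ± 21.8 CPM at 0 UMIs to 1246 ± 124 at 1, 2238 ± 283 at 2 and 2816 ± 410 at 4 or more.

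**Figure D1:**
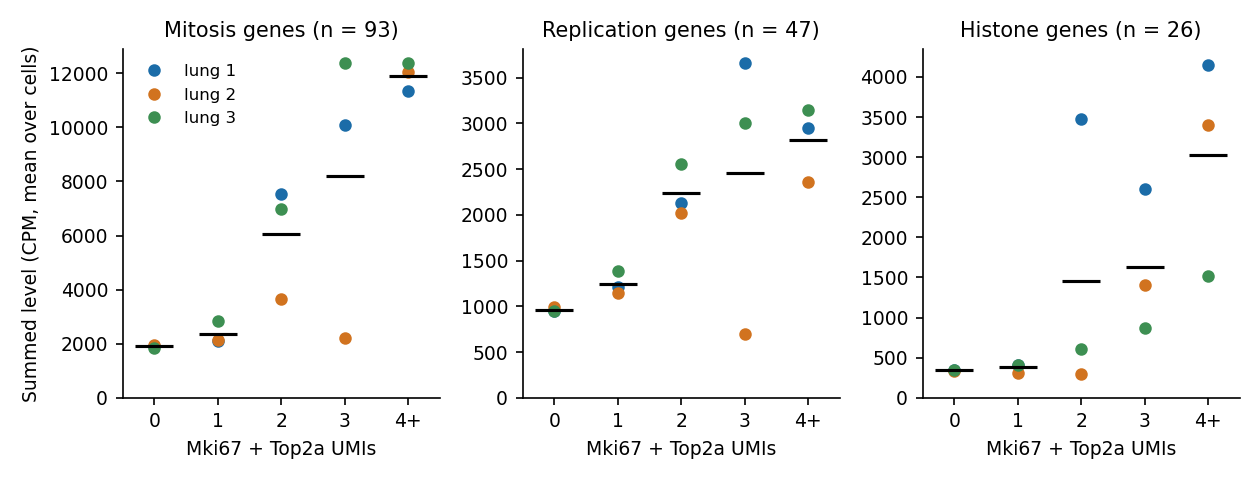
Summed CPM of mitotic, replication and histone genes (vertical axes, linear, each from 0) in mesenchymal cells grouped by their Mki67 plus Top2a UMIs (horizontal axes). Points are lungs and black lines their means; mitotic genes stand at 1909 CPM at 0 UMIs, 2352 at 1 and 6055 at 2, and lung 2 has 1 cell only at 3 UMIs.

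The cycling cells held more RNA molecules. Their median was 10572, 12551 and 10661.5 UMIs a cell in lungs 1, 2 and 3, and that of the non-cycling cells 7130, 8247 and 6384. The cycling medians lay above the non-cycling ones in 3 of 3 lungs. A deeper cell is also more likely to show 2 UMIs of any pair of genes, so depth and state cannot be told apart from these medians. Each gene test was also run with the non-cycling cells weighted to the depth of the cycling cells, and counts or values from it are given below where a call or its size changed.

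By this rule 8.06, 6.82 and 8.68% of the mesenchymal cells of lungs 1, 2 and 3 were cycling, a mean of 7.85 ± 0.945% (SD, n = 3). With each cell thinned to 3000 UMIs the share was 4.13 ± 1.40%. The same count gave 25.4 ± 1.78% in cells with Ptprc, 19.1 ± 1.32% in cells with Pecam1 and 9.40 ± 0.979% in cells with Epcam as their only lineage gene, or 11.1 ± 1.63%, 10.1 ± 1.46% and 3.45 ± 0.859% after thinning. Mesenchyme was below the blood and endothelial gates in every lung, thinned or not. In the E16.5 sort, a different preparation with 1 library and a median of 11950 UMIs, 716 of 2886 cells met the same rule (24.8%, exact 95% binomial interval 23.2 to 26.4%, which covers counting error only). Sftpc, a surfactant gene of epithelium, had a UMI in 100% of cycling and of non-cycling mesenchymal cells. Whether free RNA in the 3 libraries was its source was not tested.

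To ask which fibroblasts the cycling cells belong to, the non-cycling cells were clustered without 520 cell cycle genes into 13 clusters, named from marker genes, and every other cell was placed by its nearest non-cycling neighbours. Cycling cells fell into all main classes. Clusters 1, 2, 3, 4 and 8 were called matrix fibroblast-like, cluster 4 by a naming threshold lowered after its markers were seen; its 158 cells held 13 cycling ones, 4.62, 5.26 and 14.5% by lung. Matrix fibroblast-like cells held 68 of the 129, myofibroblast-like cells 27, pericyte-like cells 20, immune-like cells 6, an unnamed cluster led by Ptn, Prss35 and Heyl 5, mesothelium-like cells 2 and adventitial fibroblast-like cells 1. Matrix fibroblast-like cells made up 49.0, 43.8 and 63.0% of the cycling cells of lungs 1, 2 and 3, and 54.3, 51.2 and 51.3% of the non-cycling cells, 2 ranges that overlap. Myofibroblast-like cells made up 21.2 ± 7.05% of cycling and 25.4 ± 0.861% of non-cycling cells. Pericyte-like cells made up 13.7, 15.6 and 17.4% of cycling cells and 7.68, 11.7 and 6.61% of non-cycling cells, higher among cycling cells in 3 of 3 lungs. These counts depend on the clustering. At a finer clustering (Leiden resolution 2) 24 of the 129 cycling cells were matrix fibroblast-like and 47 unnamed, and with cell cycle genes kept in the clustering of all cells 95 were matrix fibroblast-like and 5 myofibroblast-like.

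Pericyte-like cells, which wrap capillaries and here were led by Higd1b, Cox4i2 and Gucy1a3, had the highest cycling share of the classes other than the 28 immune-like cells: 13.7, 8.93 and 20.0% of the class, against 7.33, 5.91 and 10.4% of matrix fibroblast-like and 7.93, 6.96 and 4.48% of myofibroblast-like cells. They stood above both in each lung, though the ranges over lungs overlap, and 3 lungs allow no exact two-sided p below 0.25. With each cell instead given the class of its highest marker level, the mesothelium-like class was at 14.7, 13.6 and 11.4% and the pericyte-like class at 12.3, 7.46 and 18.6%, so the pericyte-like class was not the highest there. Median depths were 7910, 7596 and 6629 UMIs. After thinning, the shares were 8.75 ± 4.68, 3.52 ± 2.94 and 2.75 ± 0.664%. The 6 immune-like cycling cells had Ptprc at 0, as the selection requires, and are counted among the members.

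When cell cycle genes were kept in the clustering of all cells, 86 of the 129 cycling cells gathered in 1 cluster of 105 cells led by 2810417H13Rik, Hist1h2ap and Cenpa, and 18 in a cluster of 20 led by Hist1h2ap, Ube2c and the pericyte gene Higd1b.

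Within the classes the clusters differed. Among matrix fibroblast-like cells, cluster 2, led by Meox2, Wnt2 and Ccl11, had 30 cycling of 223 cells, 13.04, 11.48 and 15.71% by lung. Cluster 1, led by Hsd11b1 and Ces1d, had 12 of 212, or 6.17, 3.03 and 7.69%, below cluster 2 in each lung. Cluster 8, led by Hsd11b1 and Dpt, had 0 of 71. The exact 95% binomial interval, 0 to 5.06%, pools the cells of the lungs and covers counting error only. Clusters 3 and 4, whose leading genes were immediate early genes such as Nr4a1, Jun and Nr4a2, had 13 of 192 and 13 of 158. Without cluster 4 the class had 55 cycling of 698 cells, a share of 7.81 ± 1.70%, and made up 42.1 ± 4.18% of cycling and 42.5 ± 1.15% of non-cycling cells. When cells were thinned to 3000 UMIs and called cycling at 1 UMI, cluster 1 had 13.7 ± 5.98% and cluster 2 had 12.5 ± 4.49%, so that order was lost, while cluster 8 had 1 cycling cell of 70.

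The 3 myofibroblast-like clusters ranged further apart. Cluster 10, led by Smpx, Ednrb and Aard, with Pdgfra among its top genes, had 7 cycling of 63 cells, and cluster 0, led by Tnfrsf12a, Crh and Tgfbi, had 19 of 233. Cluster 6, led by Actc1, Crispld2 and Crh and with as many smooth muscle as myofibroblast markers among its leading genes, had 1 of 117, or 0, 0 and 2.50% by lung. Its cells were the shallowest at a median of 5022 UMIs. Thinned to 3000 UMIs and called at 1 UMI, cluster 6 had 4 of 115 cells, against 9 of 62 in cluster 10. The adventitial fibroblast-like cluster, led by Agtr2 and Igfbp2, had 1 of 67 cells, and 6 of 65 after that thinning, a share of 21.7% in lung 2 and a mean of 8.70 ± 11.5%.

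**Figure D2:**
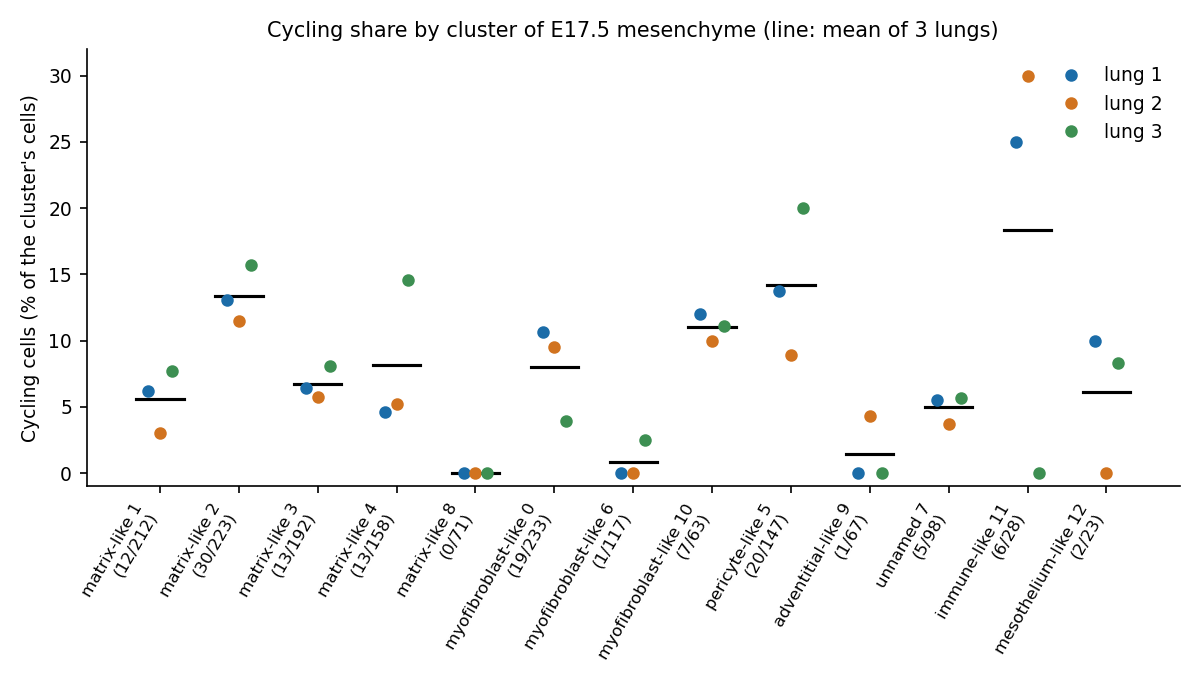
Cycling cells as a percentage of all cells of each cluster (vertical axis), with clusters ordered by class (horizontal axis) and cycling over all cells in brackets. Points are the 3 lungs and lines their means; pericyte-like cluster 5 and matrix-like cluster 2 average 14.2 and 13.4%, and matrix-like cluster 8 is at 0 in every lung.

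Between cycling and non-cycling mesenchyme, paired by lung, 629 of 8108 genes were higher in cycling cells (7.76% of those tested) and 514 lower (6.34%) at an adjusted p under 0.05 in limma, a linear model with a variance shared across genes. Tests used log2 of CPM plus 10, so differences of low genes are understated. With non-cycling cells weighted to the depth of cycling cells, 472 genes were higher and 232 lower. Of the genes higher or lower without weights, 443 and 183 were called again. The rises were thus retained more often than the falls under this weighting, and 67.1% of the calls were then rises, against 55.0%. Of the rises 294 were at least 2-fold and of the falls 66.

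The largest rise was that of Hist1h2ap, a replication-dependent H2A histone, at 2979, 2140 and 604 CPM in the cycling cells of lungs 1, 2 and 3 and 30.1, 30.7 and 14.9 CPM in the non-cycling cells. The log2 difference was 5.52 ± 0.21 (standard error, SE; limma adjusted p = 2.11e-09), and lung 3 was the lowest in both states. Near-identical histone genes can share reads, so the level of a single copy is uncertain. Next were 2810417H13Rik, the PCNA-associated factor, and Ube2c, the E2 enzyme of the APC/C. Ube2c had 527, 623 and 743 CPM against 19.7, 20.4 and 19.3, a log2 difference of 4.41 ± 0.13 (limma adjusted p = 3.35e-10), and 4.71 with depth weighting. For these 3 genes every lung's cycling cells stood above all 3 lungs' non-cycling cells.

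The other 9 of the 12 largest rises, between 3.68 and 3.98 on the log2 scale, were Nusap1, Spc25, Birc5, Ccnb1, Cenpf, Pbk, Ccna2, Lockd and Cdca3. All but Lockd, a long non-coding RNA, encode proteins of chromosome segregation or of entry into mitosis. Nusap1, a spindle microtubule protein, had 204, 204 and 202 CPM in cycling cells and 2.39, 4.53 and 3.65 CPM in the others. Ccnb1, cyclin B1, had 180, 174 and 289 CPM against 4.54, 8.11 and 5.55. Cdk1, its kinase, had 312, 240 and 408 CPM against 19.2, 18.3 and 25.0, and rose by 3.39 ± 0.14 (limma adjusted p = 2.76e-09).

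**Figure D3:**
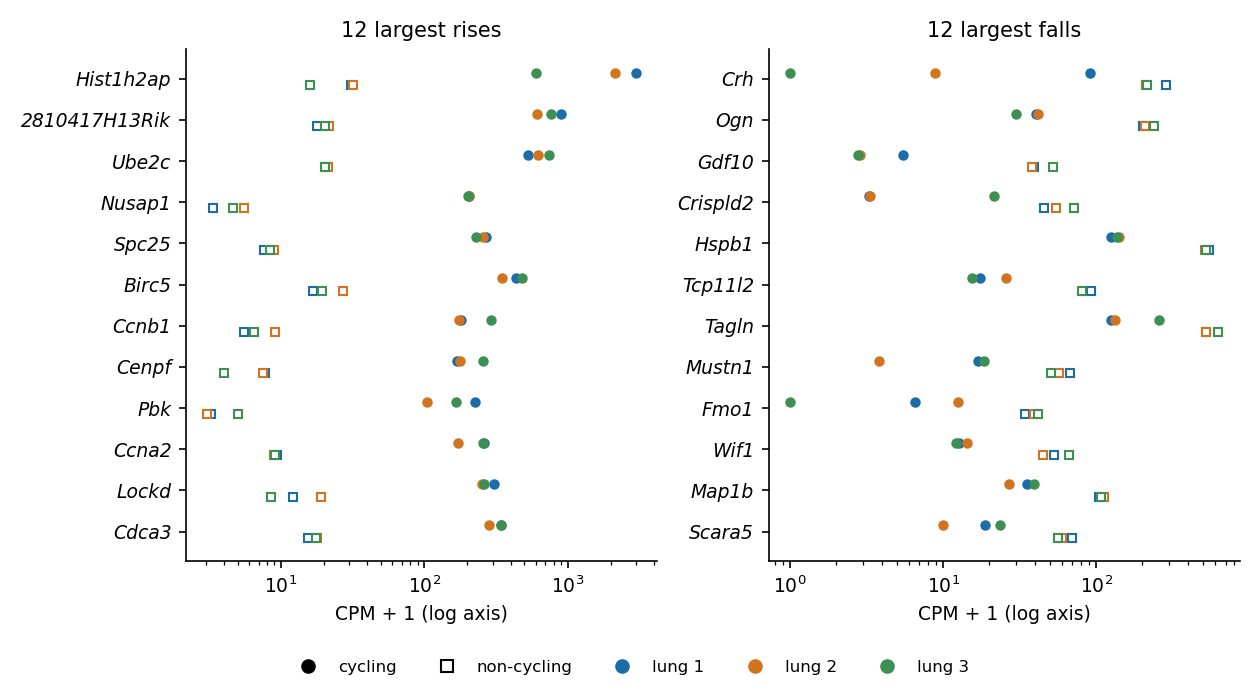
Mean CPM plus 1 (horizontal log axes) of the 12 genes with the largest rise and the 12 with the largest fall. Filled circles are cycling and open squares non-cycling cells of the 3 lungs (colours); the rises are separate in every lung, as for Ube2c at 527 to 743 against 19.3 to 20.4 CPM.

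Lists are counted below over the genes that passed the filter on low values. A gene near 0 in non-cycling cells passed it only through the cycling cells, so a share of a list that rose describes the genes tested and not the whole list. Of the mitotic lists 37 of 39 kinetochore, 35 of 40 spindle, 34 of 34 condensin and 10 of 10 tubulin genes were tested, and 14 of 15 of the APC/C. All 37 tested genes of the kinetochore and spindle checkpoint rose (median log2 difference 2.44, against -0.02 over all genes tested), as did all 35 of the spindle motors and cytokinesis (median 2.66). Their smallest rises were those of Zwint, a kinetochore linker, at 0.66 and Kif18a, a kinesin, at 1.303. Of 34 condensin, cohesin and chromatin architecture genes 33 rose, from Smc2 of condensin at 3.45 down, and with H2afx at 3.03 and Hmgb2, a DNA-bending protein, at 2.83. Of 10 tubulins and stathmin 8 rose, led by Stmn1, which destabilises microtubules, from 176, 211 and 172 to 1759, 1257 and 1628 CPM.

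The APC/C list split. Its activators and regulators rose, Ube2c, Cdc20 (3.57), Fbxo5 (2.42), Fzr1 (1.76) and Ube2s (1.45), with 2 structural subunits, Anapc5 (0.64) and Anapc11 (0.55). The other 7 of the 14 tested, among them Cdc16, Cdc23, Cdc26, Cdc27, Anapc13 and Anapc16, did not pass the test, with differences from -0.31 to 0.52. Pttg1, securin, was among these at 0.15.

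Replication genes rose by less. Of 47 licensing and fork genes 40 were tested and 39 rose, with a median of 1.15. Asf1b, a histone chaperone, rose by 2.66, Gmnn, geminin, by 2.15, Clspn by 2.10 and Lig1, DNA ligase I, by 2.06, and Gins4 at 0.53 ± 0.17 did not pass (limma adjusted p = 0.0661). Of 13 tested nucleotide supply genes (14 listed) 9 rose: Tk1, thymidine kinase, by 3.42, and Rrm2 and Rrm1, the subunits of ribonucleotide reductase, by 3.02 and 2.19. Of 10 tested replication-dependent histones (25 listed) 8 rose, while Hist1h2bc fell by 0.39. With depth weighting 30 replication genes, 7 nucleotide genes and 7 histones were called higher, and no histone, Hist1h2bc included, was called lower.

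Among the drivers of the cycle, the cyclins parted. Of 25 tested cyclins, kinases and activators (26 listed) 19 rose, including Ccna2 (3.70), Ccne2 (1.58) and Ccne1 (1.16). Ccnd2, a D-type cyclin that acts earlier, in G1, was the 1 that fell: it had 113, 103 and 125 CPM in cycling and 214, 230 and 232 CPM in non-cycling cells, a difference of -0.93 ± 0.11 (limma adjusted p = 8.32e-05), and -1.3 with depth weighting. Ccnd1 (0.11) and Ccnd3 (-0.39) did not pass. Of 14 tested transcriptional regulators (19 listed) 7 rose, with Foxm1 at 2.26, E2f8 at 1.66, Mybl2 at 1.47 and E2f7 at 1.28, while Myc fell by 0.58, a call not kept with depth weighting (limma adjusted p = 0.102).

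Inhibitors of the cycle did not move one way. Of 19 tested CDK inhibitors and quiescence genes (22 listed) 3 rose and 5 fell, or 4 and 3 with depth weighting. Cdkn2c, p18, had 117, 144 and 150 CPM in cycling and 19.1, 12.2 and 14.7 CPM in non-cycling cells (log2 difference 2.54 ± 0.18, limma adjusted p = 3.92e-07). Cdkn2d, p19, rose by 1.57 and Rbl1, p107, by 0.99. The antiproliferative genes Tob1 (-0.69), Btg2 (-0.60) and Btg1 (-0.46), Mxd4, a Myc antagonist (-0.67), and Klf4 (-0.49) fell. Cdkn1a (-0.40), Cdkn1b (0.25) and Cdkn1c (-0.18) did not pass. Maintenance methylation and chromatin enzymes rose in 10 of 15, with Uhrf1 at 2.24, Ezh2 at 1.53 and Dnmt1 at 1.49, and checkpoint and DNA repair genes in 9 of the 10 that were tested of 25 listed.

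Among the falls, Ogn, the proteoglycan osteoglycin, had 39.7, 41.0 and 29.0 CPM in cycling and 202, 206 and 238 CPM in non-cycling cells, a log2 difference of -2.28 ± 0.15 (limma adjusted p = 2.44e-07) and of -2.09 with depth weighting. Crh, corticotropin-releasing hormone, had the largest fall, -3.22 ± 0.37, from 283, 212 and 214 to 90.0, 7.91 and 0 CPM, and is a leading gene of myofibroblast-like clusters 0 and 6. Gdf10, Crispld2, Map1b and Scara5, with falls of -2.04, -1.98, -1.46 and -1.45, are leading genes of cluster 6, which held 1 cycling cell. With non-cycling cells weighted to the cluster makeup of the cycling cells, these 4 were at -1.18, -1.10, -0.57 and -0.82. Map1b was then not called (limma adjusted p = 0.0534), nor was Scara5 with depth weighting (-0.55, limma adjusted p = 0.181).

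Elastic fibre genes fell in 9 of 15 tested (17 listed) and rose in none (median -0.56), where 6.34% of all genes tested fell. Eln, elastin, had 1901, 2058 and 2917 CPM in cycling and 5346, 5952 and 6283 CPM in non-cycling cells, with no overlap. Its log2 difference of -1.37 ± 0.07 (limma adjusted p = 1.62e-08) became -1.0 with depth weighting and -0.69 with cluster weighting, called in each. Fbln5, a fibulin of elastic fibre assembly, fell by 1.3 and Mfap4, a microfibril protein, by 0.84, and both were called under both weightings. With depth weighting 3 of the list were called lower, and with cluster weighting 6 were lower and 1 higher.

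Collagen genes and their enzymes were lower in 14 of 23 tested (26 listed), higher in none, and had a median of -0.43. Of the 14, Col1a1, Col1a2, Col3a1 and Col6a2 are selection genes of the mesenchyme, and the deeper cycling cells can pass that selection at a lower level. These 4 are therefore given as values only, and the count and the median draw partly on them. With cluster weighting 9 of the list were called lower. The fibrillar chains Col1a1, Col1a2 and Col3a1 were at -0.79, -0.62 and -0.55. Col1a1 had 991, 951 and 877 CPM in cycling and 1487, 1852 and 1569 CPM in non-cycling cells. The cross-linking enzymes Loxl1 and Lox fell by 0.93 and 0.84, and P3h1, a prolyl hydroxylase, by 1.09. Plod2, a lysyl hydroxylase, was at 0.00 ± 0.16. With depth weighting 7 of the list were lower: Loxl1, Lox, P3h1, the collagen chaperone Serpinh1, and the selection genes Col1a1, Col1a2 and Col3a1.

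Contractile genes fell in 12 of 24 tested (26 listed), against 6.34% of all genes tested, and rose in none, and 8 fell with depth weighting. Tagln, transgelin, had 124, 131 and 256 CPM in cycling and 518, 520 and 627 CPM in non-cycling cells (log2 difference -1.72 ± 0.13, limma adjusted p = 7.39e-07), and -1.81 with depth weighting. Actg2 (-1.31), Cnn1 (-1.22), Des (-0.83) and Acta2 (-0.47) fell too, while Tpm4, Actn1 and Srf were at 0.13, 0.18 and 0.27 and did not pass. With cluster weighting 6 of the list were called lower and 1 higher, and Actg2 was at -0.46 (limma adjusted p = 0.246). Class markers, summed by list, also differed between the states. The 12 myofibroblast markers were at 1018 to 1209 CPM in cycling and 2353 to 2483 CPM in non-cycling cells, with none higher. The 12 matrix fibroblast markers were at 1916 to 2575 against 2874 to 3028 CPM, also with none higher in cycling cells. The 10 smooth muscle markers were at 851.5 to 1760 against 1908 to 2281 CPM, again with none higher. The 14 adventitial fibroblast markers were at 598 to 860 against 1179 to 1253 CPM, 3 of them being higher. The 14 pericyte markers were at 1428 to 1992 against 1235 to 1946 CPM, 12 of them being higher. Within pericyte-like cells alone the order differed. There Higd1b was at 1789 CPM in cycling and 2367 CPM in non-cycling cells, and Cox4i2 at 1238 and 1949 CPM. Abcc9 (91.5 against 74.7 CPM) and Postn (921 against 867 CPM) had higher means in cycling cells of that class, and every other pericyte marker a lower one. With non-cycling cells weighted to the class makeup of the cycling cells 655 genes were higher and 516 lower, and with the cluster weighting 631 and 457. The part of these markers in the results was not tested further.

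Of 11 macrophage or monocyte markers 10 were higher in cycling cells, with sums of 322 to 1086 CPM against 494 to 571, and of 282 to 352 against 347 to 350 CPM without the immune-like cluster. The summed level of 6 lymphocyte markers was 0 to 122 CPM in cycling and 0.606 to 1.09 CPM in non-cycling cells, with 2 of the 6 higher in cycling cells and Cd3e, Cd3g, Nkg7 and Ltb at 0 there. Without the immune-like cluster it was 0 in cycling and 0.522 to 1.11 CPM in non-cycling cells. Without the clusters that are not mesenchyme, 712 genes were higher and 644 lower.

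Immediate early and stress genes fell in 14 of 21 tested (22 listed), against 6.34% of all genes tested, and rose in none. Hspb1, a small heat shock protein, went from 542, 514 and 522 to 124, 141 and 136 CPM (log2 difference -1.90 ± 0.10, limma adjusted p = 1.97e-08; -1.42 with depth weighting). Atf3 (-0.98), Socs3 (-0.73) and Klf4 (-0.49) fell, but with depth weighting only Hspb1, Junb and Dusp1 of the list were called lower. Atf3 in cycling cells had 390 CPM in lung 2 and 160 and 130 CPM in lungs 1 and 3. Nr4a1 was at -0.03 ± 0.10.

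Of 21 tested Wnt pathway genes (29 listed) 5 fell (2 with depth weighting). The 5 were the secreted antagonists Wif1 (-1.52), Notum (-1.01) and Dkk3 (-0.49), the ligand Wnt5a (-0.72) and Rspo1 (-0.88), while Axin2, a target of the pathway, was at 0.21 and Wnt2 at -0.09. Of 10 tested hedgehog genes (12 listed) 1 was called lower, and of 17 tested FGF and PDGF genes (20 listed) 2. Over all genes tested 6.34% were called lower. Hhip, a hedgehog antagonist, fell by 1.11, and Fgf18 by 0.99 and Fgfr4 by 0.87. With depth weighting no gene of the hedgehog list or of the FGF and PDGF list was called. Of 23 tested TGF-beta and BMP genes (26 listed) 6 fell, and 4 with depth weighting, with Id3 at -0.66. Of 19 tested IGF and imprinted growth genes (21 listed) 4 fell, and 2 with depth weighting. Igf1, a growth factor, fell by 0.96 and Igfbp4 by 0.95. Wif1, Notum, Hhip, Fgf18 and Igf1 are also myofibroblast markers used to name the clusters. Fgfr4 and Rspo1 are matrix fibroblast markers and Igfbp4 an adventitial one. With depth weighting Wnt5a was at -0.14, Hhip at -0.43, Fgf18 at -0.38 and Igf1 at -0.25, none of them called.

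Of 34 ribosomal protein genes 5 fell, none rose and the median was -0.06, with Rps27 the lowest at -0.30. That count was 8 with depth weighting, 12 with cluster weighting, 2 with median-of-ratios scaling and 1 in edgeR. Of 22 respiratory chain genes 4 rose, led by Cox7a2 at 0.53, and 1 with depth weighting. Over all genes tested without weights 7.76% were called higher and 6.34% lower. Among 13 tested glycolytic genes (15 listed) Aldoa (-0.70) and Hk2, hexokinase 2 (-0.97), fell and Gapdh rose by 0.30, a rise that turned to -0.16 with depth weighting and was then not called, while 4 of the list fell.

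**Figure D4:**
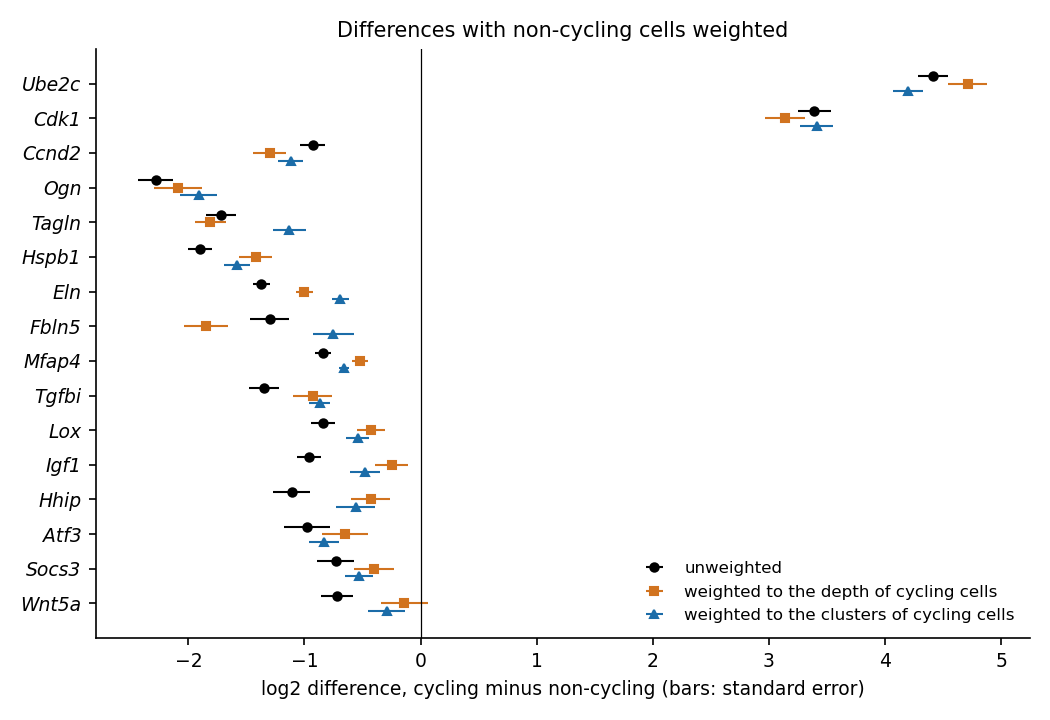
Log2 difference between cycling and non-cycling mesenchyme (horizontal axis, bars are standard errors) of 16 genes (vertical axis), without weights and with non-cycling cells weighted to the depth or to the cluster makeup of the cycling cells. Ube2c and Cdk1 stay above 3 on each line, Eln goes from -1.37 to -1.0 and -0.69, and Wnt5a from -0.72 to -0.14 and -0.29.

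Within matrix fibroblast-like cells alone, 68 cycling cells against 712 non-cycling cells, 453 of 7700 genes were higher in cycling cells (5.88%) and 311 lower (4.04%). With depth weighting 351 were higher and 176 lower. Kinetochore genes rose in 34 of 35, spindle motor and cytokinesis genes in 35 of 35 and replication genes in 35 of 41. With depth weighting 34, 34 and 21 genes of these lists were called higher. The 6 largest rises were those of Hist1h2ap, 2810417H13Rik, Ube2c, Spc25, Birc5 and Lockd.

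The largest fall within the class was that of Aspn, asporin, a proteoglycan, at 3.64, 0 and 12.2 CPM in cycling and 56.5, 56.7 and 64.8 CPM in non-cycling cells (log2 difference -2.26 ± 0.31, limma adjusted p = 3.31e-07; -2.18 with depth weighting). Ogn went from 260, 264 and 276 to 65.5, 77.0 and 39.5 CPM, and fell by 2.01. Tcp11l2, Tagln, Fmo1 and Prss12 followed with -1.93, -1.82, -1.71 and -1.71. All 6 were lower in cycling cells in 3 of 3 lungs without overlap, and with depth weighting Fmo1 alone of them was not called (limma adjusted p = 0.0585). Here 8 of 23 collagen genes and 9 of 21 immediate early genes fell and none rose, and of 12 elastic fibre genes 4 fell and Fbln1 rose. With depth weighting 4 collagen, 4 immediate early and 3 elastic fibre genes were called lower, and 1 elastic fibre gene higher. The 23 collagen genes include the selection genes Col1a1, Col1a2, Col3a1 and Col6a2, so that count draws partly on genes that chose the cells. Of 19 contractile genes 4 fell and 4 rose, the latter being Csrp2 (0.82), Tpm2 (0.58), Tpm4 (0.32) and Tagln2 (0.25). None of the 4 was called higher over all mesenchyme. With depth weighting 1 of the 19 was higher and 1 lower, with cluster weighting 3 and 3, with median-of-ratios scaling 2 and 4, and in edgeR 2 and 5.

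In the remaining mesenchyme, 53 cycling cells of the myofibroblast-like, pericyte-like, adventitial fibroblast-like and unnamed clusters, 428 of 8135 genes were higher (5.26%) and 386 lower (4.74%). With depth weighting 257 were higher and 58 lower, and with cluster weighting 409 and 258. Of the genes higher in cycling matrix fibroblast-like cells, 314 (69.3%) were also higher here, or 73.4% of the genes higher here. Of the lower genes 109 were shared, 35.0% of one list and 28.2% of the other. Cxcl14, H19 and Nnat, named for this after their values were seen, were called higher in matrix fibroblast-like and lower in the remaining cycling cells. With depth weighting none of the 3 was called lower in the remaining cells, where Nnat was at 0.17, and of the 3 H19 alone passed the test of the difference given next.

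**Figure D5:**
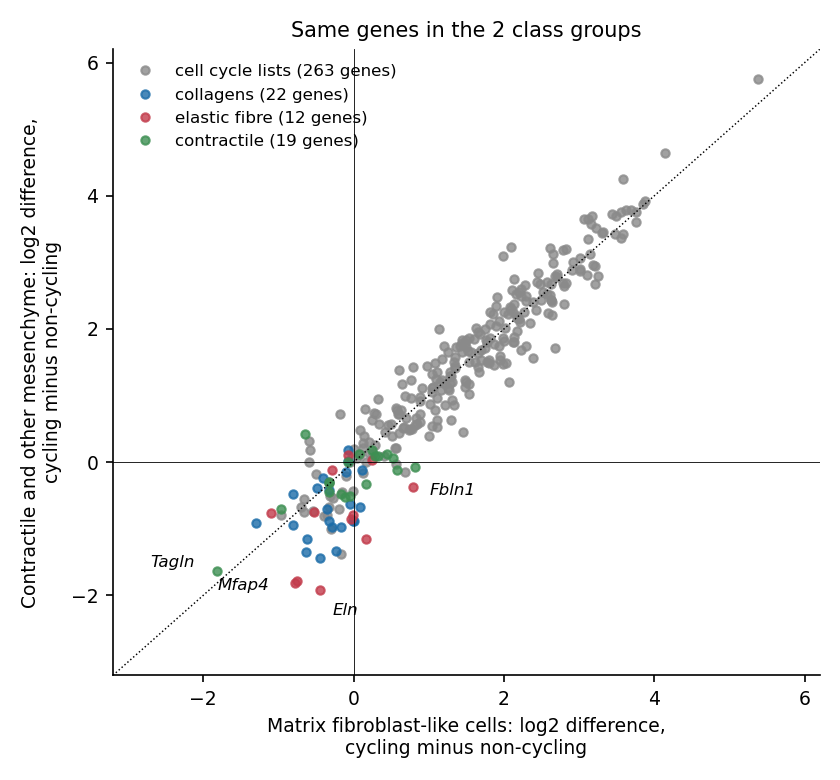
Log2 difference between cycling and non-cycling cells in matrix fibroblast-like cells (horizontal axis) and in the remaining mesenchyme (vertical axis) for genes of the cell cycle, collagen, elastic fibre and contractile lists tested in both. Cell cycle genes lie along the dotted line of equal difference, while Eln (-0.45 and -1.92) and Mfap4 (-0.75 and -1.79) lie below it.

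The difference between the 2 groups was tested itself, as an interaction, and passed for 9 of 8046 genes (0.112%). All had a lower log2 difference between the states in the remaining mesenchyme: Mfap4, Eln, H19, Hspb1, Col6a1, Fbln1, Gdf10, Mgp and Mmp2. No cell cycle list gene was among them. Mfap4 went from 13160, 13610 and 14790 to 8374, 7856 and 8505 CPM in matrix fibroblast-like cells and from 1957, 1925 and 2393 to 606, 486 and 710 CPM in the remaining cells, an interaction of -1.05 ± 0.11 on the log2 scale (limma adjusted p = 0.00012). Eln went from 2742, 3004 and 3442 to 1926, 2490 and 2318 CPM and from 8911, 9407 and 9984 to 1851, 2019 and 4068 CPM (-1.47 ± 0.20, limma adjusted p = 0.00293). Fbln1, fibulin 1, rose in matrix fibroblast-like cells (0.79 ± 0.15, limma adjusted p = 0.000217) and was at -0.37 ± 0.15 in the others (limma adjusted p = 0.145).

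These 9 genes also differ between clusters, which were formed with them, and Gdf10 is a leading gene of cluster 6. With cluster weighting none of the 9 kept its call, and 487 of 8021 genes tested had an unadjusted limma p under 0.05. With depth weighting Mfap4 alone kept its call (-1.16, limma adjusted p = 0.0496). Without lung 1 no gene was called, and 520 of 8041 had an unadjusted limma p under 0.05. Where no gene differs, a share near 0.05 would pass that threshold. Without lung 2 there were 4 calls, 1 of them higher, and without lung 3 there were 2.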

How the data were processed

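Single-cell RNA of 3 E17.5 lungs was analysed, with 1 E16.5 sort for 1 share. The deposited values are a normalized signal per gene and cell, in which the authors scaled every cell of a file to 1 total, as the values themselves show. Cell Ranger 1.3.1 and Seurat 3.0.0 are named, without their role, per the submitters' processing notes, while for the genome build the sources used here state nothing. Dividing each cell by its smallest value above 0 gave whole UMIs for 100% of values (within 0.01). Median UMIs a cell were 7979, 8493.5 and 7201 in lungs 1, 2 and 3, and 9 to 12 barcodes were shared between any 2 lungs.

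The members, lists and tests were chosen with earlier results of these data known. Cells were clustered without 520 cell cycle genes (2000 variable genes, 30 components, 15 neighbours, Leiden resolution 1; scanpy 1.11.5, leidenalg 0.10.2) and named from marker scores. The level at which a marker counts as raised was lowered from 2-fold to a log2 of 0.5 after cluster 4 was seen to stay unnamed. Doublets were called (100 of 7479 cells, 1.34%; 12 in mesenchyme) and kept, and leaving them out was an alternative.

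Mean CPM per lung and state, as log2 of CPM plus 10, was tested with limma 3.58.1 (R 4.3.3) with lung as a block, over genes that averaged 10 CPM or more, with Benjamini-Hochberg adjustment at 0.05. limma shares its estimate of the spread across genes, with 2 residual degrees of freedom of its own per gene, and the p-values measure the spread between these lungs only. edgeR 4.0.16 and DESeq2 1.42.0 on the recovered UMIs were alternatives. On simulated data the false calls were near the nominal rate for all mesenchyme and above it within matrix fibroblast-like cells and most of all in the remaining mesenchyme, so single calls near the threshold there are less secure. The pairing comes from the animal: cycling and non-cycling cells of a lung share its library, and their deviations correlated at 0.0965, 0.115 and 0.132 across genes.

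Genes named are the 12 largest rises and falls in mesenchyme and 6 of each in matrix fibroblast-like cells, all in 1 direction in 3 of 3 lungs, up to 4 called members of each list with its extremes, and the interaction genes. Other list members are named for their role, after their values were seen. Two-sided tests were used throughout.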

Additional observations from a re-analysis of the deposited data

Results flagged for a closer look

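The difference between cycling and non-cycling cells was itself different in matrix fibroblast-like cells and in the remaining mesenchyme for 9 genes, by the limma interaction test. Each had a lower log2 difference, cycling minus non-cycling, in the remaining mesenchyme. On the log2 scale the interactions were -1.05 for Mfap4 (adjusted p = 0.00012) and -1.47 for Eln (adjusted p = 0.00293), both of elastic fibres. They were -1.14 for H19, -1.11 for Col6a1 and -1.63 for Hspb1 (adjusted p = 0.0169 for each). They were -1.16 for Fbln1 (adjusted p = 0.0213), -2.18 for Gdf10 (adjusted p = 0.0294), -0.67 for Mgp (adjusted p = 0.0317) and -1.29 for Mmp2 (adjusted p = 0.0345). The clusters that make up the classes were formed from the same cells and genes, and Mfap4 and Gdf10 are leading genes of clusters 8 and 6, which held 0 and 1 cycling cells.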

How the results depend on the processing

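Alternatives that weight by cluster makeup, thin cells with a threshold of 1 UMI, scale the remaining mesenchyme by median of ratios, or name classes with markers raised 2-fold were chosen after seeing the data. Between cycling and non-cycling mesenchyme, calls numbered 1143, against 704 with depth weighting, 709 with no low-value filter, 713 above 50 CPM and 641 with DESeq2 (69.0% of these higher), and 873 to 929 leaving out each lung. Within matrix fibroblast-like cells 764 calls became 462 above 50 CPM, 403 with DESeq2 (78.4% higher, against 59.3%) and 395 (without lung 1) to 767 leaving out each lung. In the remaining mesenchyme 814 became 315 with depth weighting and 316 (without lung 1) to 831. The 9 interaction calls became 1 with depth weighting, 0 with cluster weighting, 1 with a pseudocount of 1, 34 with edgeR and 0 to 4 leaving out each lung. Without the replicate block the pairing by lung is ignored, and there were 1057, 530 (72.5% higher) and 660 calls and 2 interaction calls. The direction turned for Ebf1 with cluster and with class weighting (-0.22 each), for Fabp5 (-0.01) and Gapdh (-0.16) with depth weighting, for Tcf21 in matrix fibroblast-like cells with depth weighting (0.04), for Igfbp2 (0.25) and Postn (-0.0) with cluster weighting and Nnat (0.17) with depth weighting in the remaining mesenchyme, and for the interaction of Gdf10 with edgeR (1.31). The cause was not tested.

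The matrix fibroblast-like cycling share of 7.89% became 4.41% at Leiden resolution 2, 10.7% with cell cycle genes kept in the clustering, 5.01% at 4 or more UMIs, 3.52% thinned and 10.7% thinned at 1 UMI. Its part of the cycling cells, 51.9%, became 18.3% at resolution 2 and 73.4% with cell cycle genes kept. The myofibroblast-like share of 6.45% became 1.37% with those genes kept, 4.56% at 4 or more UMIs, 2.75% thinned and 10.7% thinned at 1 UMI, and its part of the cycling cells, 21.2%, became 4.19% with those genes kept. The pericyte-like part, 15.6%, became 19.1% by the highest marker level and 21.5% thinned. Calling cells at 4 or more UMIs left under 10 cells in a lung within matrix fibroblast-like cells, so that comparison has no value. With names by markers raised 2-fold, 689 matrix fibroblast-like and 12 interaction calls were made.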
